A study of Mus musculus with 6 samples.

Results

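The genes described here encode 10 inputs of IL-17 and Toll-like receptor (TLR) signaling that lie upstream of IκBζ: the receptors Il17ra, Il17rc, Tlr2 and Tlr4, the adaptors Traf3ip2 and Myd88, the kinases Irak1, Irak2 and Irak4, and the ubiquitin ligase Traf6. They were picked by name for their place in these pathways, with no threshold on a measured value but with earlier results of these data known, and all 10 were found among the 43043 genes listed per sample. D4M-3A is a mouse melanoma cell line, and its RNA was sequenced in 3 control (Ctrl) samples, in which the cells had received an empty CRISPR-Cas9 construct by lentiviral transduction, and in 3 Nfkbiz knockout (Nfkbiz KO) samples, in which the construct was directed against Nfkbiz. Both groups were transduced and drug-selected, whether the cells were a pool or 1 clone is not given in the sources used here, and they were grown in medium with serum to which the labels name no added IL-17 or TLR ligand. The study describes the 3 samples of a group as independent experiments, and the labels do not name separate cultures.

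IκBζ, encoded by Nfkbiz, is an atypical nuclear member of the IκB family that cooperates with NF-κB at a subset of its target genes. In macrophages and keratinocytes its production is induced through these inputs, among others. TLR2 and TLR4, which sense bacterial lipoproteins and lipopolysaccharide, recruit MYD88 and a complex of IRAK4, IRAK1 and IRAK2, whereas IL-17A and IL-17F bind a receptor of IL17RA and IL17RC chains that recruits ACT1, the product of Traf3ip2. Both branches converge on TRAF6, which builds the ubiquitin chains that activate the TAK1 and IκB kinase complexes.

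The targeted gene itself had 3859, 4475 and 4501 total reads in the Ctrl samples and 1848, 2233 and 2584 in the Nfkbiz KO samples, so its RNA was lower but still present in every Nfkbiz KO sample. Its log2 fold change was -0.98 (standard error, SE, 0.056). These reads count edited transcripts too and say nothing of the protein.

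Of the 10 input genes, 3 were higher and 2 were lower in Nfkbiz KO cells when adjusted p-values of at most 0.05 were called (quasi-likelihood test of edgeR, with the Benjamini-Hochberg procedure run over all 14419 genes tested), and 5 did not pass. Il17ra, Tlr4 and Tlr2 rose, and Irak2 and Traf3ip2 fell. The same rule called 36.6% of all genes tested, with 18.2% higher and 18.4% lower, and the count among the input genes is read against this high background. Only Il17ra also passed a fold change of 1.5, against 11.6% of all genes, and its log2 fold change was below that limit without Nfkbiz KO replicate 2 (0.577) and with limma on log2(TPM + 1) (0.542). Tlr4 was short of the limit in the reported fit but past it without Ctrl replicate 2 (0.649) and with limma on log2(TPM + 1) (0.592) or log2(TPM + 0.1) (0.64). None of the input genes passed the thresholds of the study (more than 2-fold, a difference above 4, an adjusted p of at most 0.05), which 1.79% of all genes passed. The study gives no unit for the difference, and TPM between the means was taken here. With RPKM in its place, or with the difference omitted, none passed either. Read counts normalized for depth (CPM) of the groups did not overlap for 8 of the 10 genes, the exceptions being Il17rc and Traf6, against 48.4% of all genes tested. The median log2 fold change of the 10 genes was 0.141, beside -0.0154 over all genes tested. In bulk RNA, a lower share of cells that express a gene and less RNA of it per cell cannot be told apart.

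The 250 bases before the start of the canonical transcript are shown for the 4 input genes whose fold change was largest, so that the upstream DNA of the genes that moved can be read beside their values. They were read from GRCm39 at the starts given by GENCODE vM39, and are written 5′ to 3′ on the strand of the gene, with matches to a searched motif in capitals.
Il17ra, chr6:120439885-120440134, plus strand: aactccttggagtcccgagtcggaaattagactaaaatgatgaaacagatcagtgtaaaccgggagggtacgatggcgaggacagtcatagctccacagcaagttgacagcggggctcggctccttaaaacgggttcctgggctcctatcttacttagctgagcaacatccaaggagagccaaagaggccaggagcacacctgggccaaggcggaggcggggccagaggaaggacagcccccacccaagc
Tlr4, chr4:66745533-66745782, plus strand: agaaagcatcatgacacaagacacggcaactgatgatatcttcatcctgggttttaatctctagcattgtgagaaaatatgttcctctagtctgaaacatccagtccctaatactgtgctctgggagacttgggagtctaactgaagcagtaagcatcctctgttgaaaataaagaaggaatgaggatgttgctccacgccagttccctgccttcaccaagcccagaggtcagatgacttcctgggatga
Tlr2, chr3:83749075-83749324, minus strand: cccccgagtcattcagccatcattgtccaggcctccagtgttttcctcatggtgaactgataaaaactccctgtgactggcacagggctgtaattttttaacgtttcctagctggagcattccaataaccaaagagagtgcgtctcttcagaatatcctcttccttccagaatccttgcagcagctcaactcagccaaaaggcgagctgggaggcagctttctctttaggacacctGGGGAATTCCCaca
Irak2, chr6:113615178-113615427, plus strand: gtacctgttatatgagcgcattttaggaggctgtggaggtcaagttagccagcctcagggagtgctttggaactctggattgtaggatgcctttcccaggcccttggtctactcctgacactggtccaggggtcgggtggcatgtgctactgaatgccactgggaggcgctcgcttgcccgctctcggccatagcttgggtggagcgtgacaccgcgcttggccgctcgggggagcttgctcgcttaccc

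The windows were searched on both strands for a degenerate motif of 10 bases for NF-κB (kB), for TTCNNNGAA (STAT factors), GAAANNGAA (interferon response type) and TGANTCA (AP-1). Tlr2 held 2 overlapping kB matches, GGGGAATTCC and GGGAATTCCC, which start 14 and 13 bases before the transcript start. Il17ra, Tlr4 and Irak2 held no match to any of the 4 motifs. Among all 10 input genes, 1 had a kB match, and 1, Traf6, had an AP-1 match. Of 21738 protein-coding windows of the same length, 7.63% held a kB, 7.7% a STAT, 7.56% an interferon response and 6.18% an AP-1 match. GC content of the windows ranged among the input genes from 32% in Traf6 to 70.4% in Myd88, beside a median of 53.2% over all windows. The window of Irak2 held 60% GC and 12 CpG sites, and that of Tlr4 45.2% GC and 2 CpG sites. A match is a description of letters and does not show binding.

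Among the receptors, Il17ra, the signaling chain shared by receptors of the IL-17 family, had the lowest level and the largest change of the 10 genes. It lies on the plus strand of chromosome 6 of GRCm39 from 120440104 to 120464520. Its level was 2.67, 2.81 and 2.55 TPM (transcript abundance relative to all transcripts of the sample, a per-length unit) in the Ctrl samples and 4.50, 4.56 and 4.02 TPM in the Nfkbiz KO samples. All Nfkbiz KO samples were above all Ctrl samples. The gene had 251 to 307 total gene reads per Ctrl sample and 374 to 467 per Nfkbiz KO sample. The mean went from 2.68 ± 0.13 TPM to 4.36 ± 0.293 TPM (SD, n = 3 each). On the count scale Il17ra was 1.53-fold higher (95% interval 1.33 to 1.76), with a log2 fold change of 0.61 (SE 0.093, adjusted p = 2.6e-04, edgeR).

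Il17rc, the partner chain that completes the receptor for IL-17A and IL-17F, lies on the same chromosome from 113448388 to 113460103. It had 47.1, 40.9 and 42.7 TPM in the Ctrl samples and 52.9, 52.3 and 48.3 TPM in the Nfkbiz KO samples. In TPM every Nfkbiz KO sample was above every Ctrl sample, whereas the normalized CPM overlapped, since Ctrl replicate 1 at 39.8 CPM was above Nfkbiz KO replicate 3 at 38.4 CPM. Its log2 fold change on the count scale was 0.14 (SE 0.072, adjusted p = 0.16, edgeR), with a 95% interval from -0.02 to 0.29. Between 74.3% and 78.8% of its reads mapped uniquely, in each sample a lower share than that of any other input gene, so its counts are the least certain of the set. With uniquely mapped reads alone its log2 fold change was 0.186 (adjusted p = 0.0624, edgeR). Its exons share 742 bases with Gm57002 on the opposite strand, which is not among the genes listed per sample. The effect of these bases was not tested.

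Since TPM is per length, the chains can be compared within a sample. In the Ctrl samples the TPM of Il17rc was 17.6, 14.5 and 16.7 times that of Il17ra. In the Nfkbiz KO samples the ratio was 11.8, 11.5 and 12.01. The ratio thus went from 16.3 ± 1.596 to 11.7 ± 0.271 (SD, n = 3 each), with no overlap of the groups (two-sided exact permutation test of log2 ratios, p = 0.1, below which groups of 3 cannot go). Il17ra had the lower TPM in all 6 samples. In total gene reads, which are not per length, the ratio went from 5.04 ± 0.518 to 3.62 ± 0.081. A ratio from uniquely mapped reads was not computed.

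Tlr2, the lipoprotein receptor, lies on the minus strand of chromosome 3 from 83743576 to 83749074. It had 29.7, 33.2 and 26.7 TPM in the Ctrl samples and 43.7, 42.5 and 43.2 TPM in the Nfkbiz KO samples. The Nfkbiz KO samples lay close together and all above the Ctrl samples. Its mean went from 29.9 ± 3.24 TPM to 43.1 ± 0.604 TPM. The fold change on the count scale was 1.35 (95% interval 1.23 to 1.48), with a log2 fold change of 0.43 (SE 0.062, adjusted p = 1.6e-04, edgeR).

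Tlr4, the lipopolysaccharide receptor, lies on the plus strand of chromosome 4 from 66745783 to 66849936. It had 9.25, 11.0 and 7.74 TPM in the Ctrl samples and 13.4, 14.2 and 15.8 TPM in the Nfkbiz KO samples, again with no overlap. The fold change on the count scale was 1.46 (95% interval 1.28 to 1.66), with a log2 fold change of 0.54 (SE 0.086, adjusted p = 3.6e-04, edgeR). Its exons share 235 bases with Gm69151 on the opposite strand, which is not among the genes listed per sample. The effect of these bases was not tested. The proportion of Tlr2 and Tlr4 was not separated between the groups. The TPM ratio of Tlr2 to Tlr4 was 3.21, 3.02 and 3.46 in the Ctrl samples and 3.25, 2.98 and 2.74 in the Nfkbiz KO samples. These ratios overlapped (exact permutation test, two-sided, p = 0.4).

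**Figure D1:**
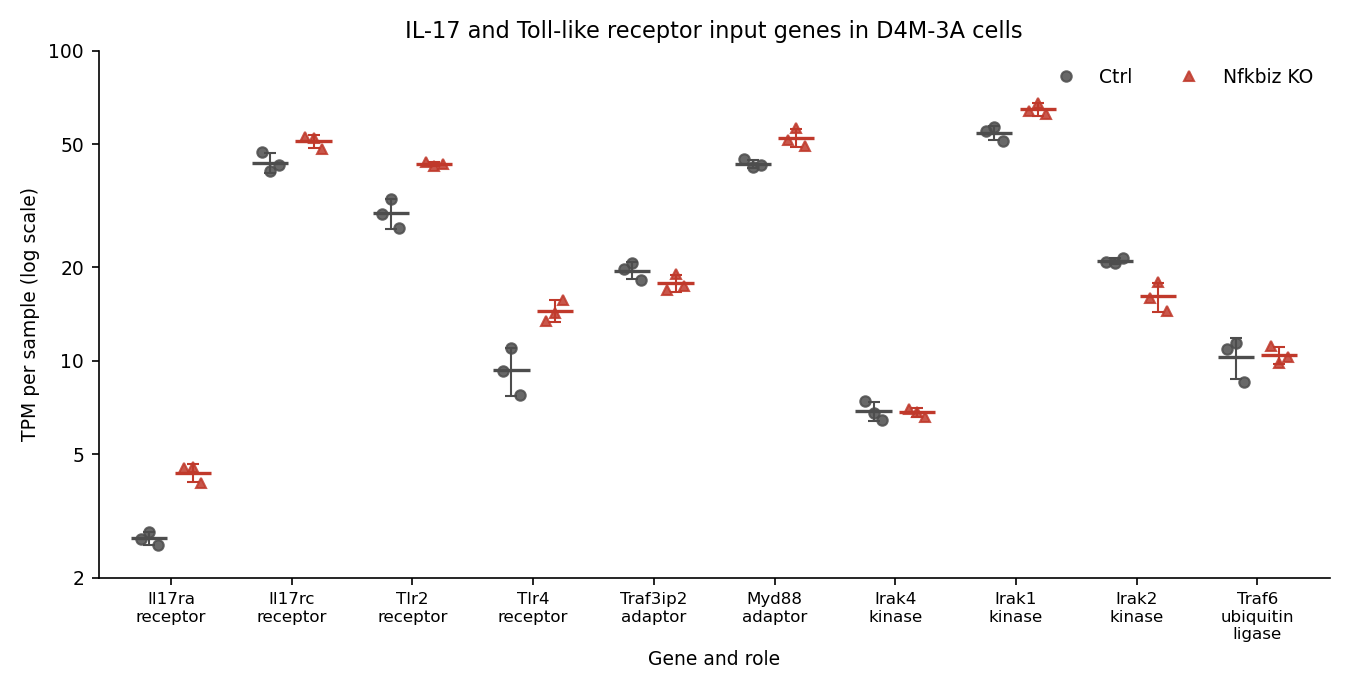
TPM of each input gene on a log scale, 3 Ctrl samples (circles) and 3 Nfkbiz KO samples (triangles) per gene, with the mean (horizontal line) and SD (error bar). Il17ra, Il17rc, Tlr2, Tlr4, Myd88 and Irak1 lie higher and Irak2 lies lower in all Nfkbiz KO samples than in any Ctrl sample, Il17ra is the lowest gene in both groups at 2.68 and 4.36 TPM, and Irak1 is the highest at 54.4 and 64.7 TPM.

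Among the adaptors, Traf3ip2 encodes ACT1, which couples the IL-17 receptor to TRAF6. It lies on chromosome 10 from 39488930 to 39534689. Its level was 19.7, 20.6 and 18.2 TPM in the Ctrl samples and 16.9, 19.1 and 17.4 TPM in the Nfkbiz KO samples, which overlap. In normalized CPM the groups did not overlap, with 25.7 to 27.95 CPM in Ctrl and 21.9 to 23.98 CPM in Nfkbiz KO. Its log2 fold change on the count scale was -0.21 (SE 0.066, adjusted p = 0.024, edgeR). The call was lost under several alternatives. Without Ctrl replicate 2, Nfkbiz KO replicate 1 or Nfkbiz KO replicate 3 the adjusted p was 0.0752, 0.122 and 0.0783, and with limma on log2(TPM + 1) it was 0.226 at a log2 fold change of -0.127. Between 77.9% and 82.9% of its reads mapped uniquely, and its exons share 2780 bases with E130307A14Rik, a long noncoding RNA gene on the opposite strand whose log2 fold change was -0.02 (SE 0.091, adjusted p = 0.91, edgeR). The reads were counted without regard to strand, so reads from the shared bases cannot be assigned to either gene.

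Myd88, the adaptor used by TLR2, TLR4 and the IL-1 receptor family, lies on the minus strand of chromosome 9 from 119165000 to 119170486. It had 44.7, 42.3 and 42.9 TPM in the Ctrl samples and 51.5, 56.3 and 49.5 TPM in the Nfkbiz KO samples. All Nfkbiz KO samples were above all Ctrl samples. Its log2 fold change on the count scale was 0.18 (SE 0.069, 95% interval 0.03 to 0.33 before adjustment), and its adjusted p of 0.057 (edgeR) missed the threshold. With limma on log2(TPM + 1) the difference was 0.269 (adjusted p = 0.0191). Its exons share 628 bases with Acaa1a, a peroxisomal thiolase gene on the opposite strand, which was lower in Nfkbiz KO (log2 fold change -0.22, SE 0.065, adjusted p = 0.019, edgeR), and the effect of the shared bases on Myd88 was not tested.

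Of the 3 kinases, only Irak2 passed the test. Irak2, which sustains TLR signaling after the first response, lies on chromosome 6 from 113615386 to 113672470. It had 20.8, 20.6 and 21.5 TPM in the Ctrl samples and 16.0, 17.9 and 14.5 TPM in the Nfkbiz KO samples. All Nfkbiz KO samples were below all Ctrl samples. Irak2 fell to a fold of 0.725 (95% interval 0.646 to 0.814), a log2 fold change of -0.46 (SE 0.077, adjusted p = 4.9e-04, edgeR), the only decrease among the TLR branch genes that passed the test. Exons of Irak2 share 677 bases with Gm67402, and fewer with Gm67399 and Gm43963, all on the opposite strand. Gm67402 and Gm67399 are not among the genes listed per sample, and Gm43963 had 0 reads in all samples. The effect of these shared bases on Irak2 was not tested.

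Irak1, the kinase that is handed from MYD88 to TRAF6, lies on the minus strand of chromosome X from 73056964 to 73067554 and was the most abundant input gene. It had 55.3, 56.6 and 51.3 TPM in the Ctrl samples and 63.8, 68.1 and 62.3 TPM in the Nfkbiz KO samples, with all Nfkbiz KO samples above. On the count scale its log2 fold change was 0.15 (SE 0.055, 95% interval 0.03 to 0.26 before adjustment, adjusted p = 0.054, edgeR), just short of the threshold, and 0.247 (adjusted p = 0.0213) with limma on log2(TPM + 1).

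Irak4, which activates the other IRAK kinases, lies on chromosome 15 from 94441161 to 94479696. It had 7.40, 6.80 and 6.42 TPM in the Ctrl samples and 7.002, 6.86 and 6.58 TPM in the Nfkbiz KO samples, and these overlapped. In normalized CPM the Ctrl samples lay above, at 11.997 to 12.775 CPM against 10.9 to 11.4 CPM. The log2 fold change on the count scale was -0.15 (SE 0.081, adjusted p = 0.18, edgeR), with a 95% interval from -0.32 to 0.03. Its exons share 647 bases with Twf1 and 341 bases with Pus7l on the opposite strand, and neither of these was called (adjusted p = 0.19 and 0.18, edgeR).

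The share of Irak2 among the 3 kinases was also compared within each sample. Irak2 was 24.9%, 24.5% and 27.1% of the summed TPM of Irak1, Irak2 and Irak4 in the Ctrl samples. In the Nfkbiz KO samples it was 18.4%, 19.3% and 17.4%. Its share went from 25.5 ± 1.42% to 18.4 ± 0.977% without overlap (two-sided exact permutation test of the log2 share, p = 0.1, again the lowest that groups of this size can reach). Irak3, the inhibitory member of the family, had 1 to 6 reads per sample and was not tested.

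Traf6, where both branches meet, lies on chromosome 2 from 101508519 to 101533545. It had 10.9, 11.4 and 8.52 TPM in the Ctrl samples and 11.2, 9.84 and 10.3 TPM in the Nfkbiz KO samples. The groups overlapped, with the lowest and the highest value both in Ctrl. On the count scale the log2 fold change was -0.06 (SE 0.084, adjusted p = 0.60, edgeR), and the 95% interval from -0.25 to 0.12 left out fold changes as large as those of Il17ra, Tlr2, Tlr4 or Irak2.

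**Figure D2:**
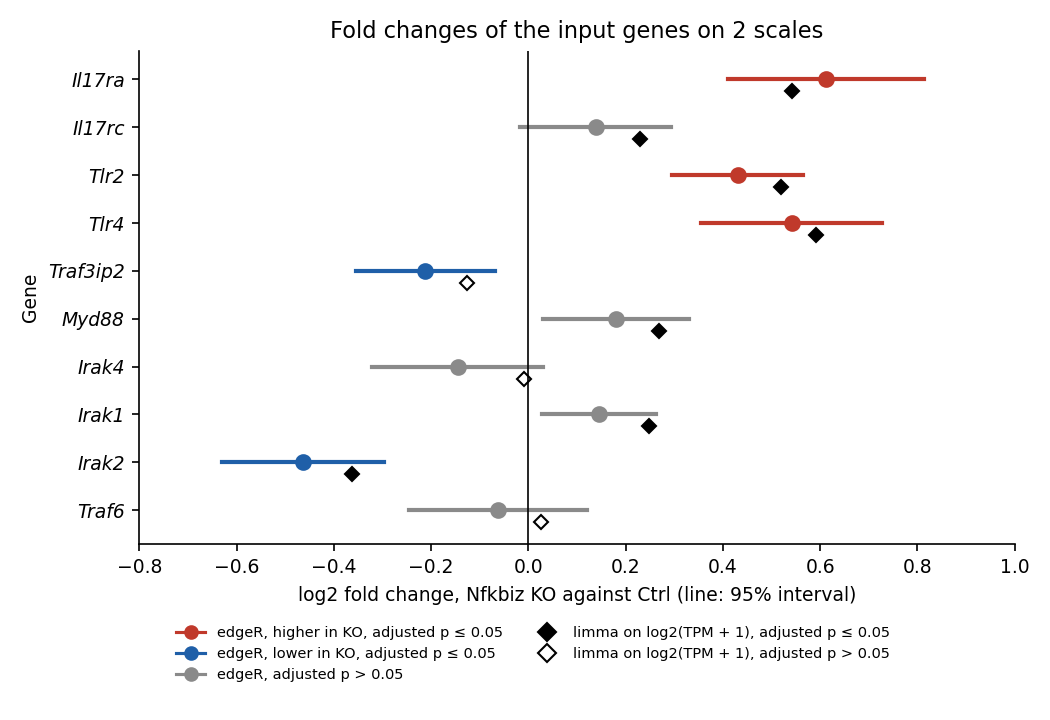
log2 fold change of each input gene between Nfkbiz KO and Ctrl (positive is higher in Nfkbiz KO), from edgeR on total gene reads (circles, with the 95% interval as a line) and from limma on log2(TPM + 1) (diamonds, filled at an adjusted p of 0.05 or less). The called genes are Il17ra, Tlr2 and Tlr4 above 0 and Traf3ip2 and Irak2 below 0, and of the 2 fits shown, Il17rc, Myd88 and Irak1 pass the test in the limma fit alone and Traf3ip2 in the edgeR fit alone.

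The choice of measure mattered for the small differences. TPM leaves out part of the total gene reads, so the count fit and the TPM fits differ in the reads used, the scale and the test. The median of all genes tested lay at 0.0625 on the log2(TPM + 1) scale and at -0.0154 on the count scale. Il17ra, Tlr2, Tlr4 and Irak2 passed the test under all 15 alternatives, with log2 fold changes of 0.542 to 0.682, 0.385 to 0.532, 0.481 to 0.649 and -0.525 to -0.362. Traf3ip2 passed in 10 of 15, Myd88 in 5, Irak1 in 4, Il17rc in 1, and Irak4 and Traf6 in 0. The sign for Traf6 turned under 3 of the 15.

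In both groups the levels followed a like order. In Ctrl, Irak1 came first, followed by Il17rc and Myd88, whose ranges overlapped, then Tlr2, then Irak2 and Traf3ip2, which overlapped, then Traf6 and Tlr4, which overlapped, then Irak4 and last Il17ra. In Nfkbiz KO, Myd88 and Il17rc again overlapped behind Irak1. Traf3ip2, Irak2 and Tlr4 overlapped with their neighbours, and Tlr4 stood above Traf6 with separate ranges. Among genes with a TPM above 0, Irak1 stood at percentile 84.7 and Il17ra at percentile 44.0 in Ctrl. In Nfkbiz KO, Tlr2 stood at percentile 80.1, compared with 75.4 in Ctrl, and Irak2 at 63.1, compared with 69.1.

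**Figure D3:**
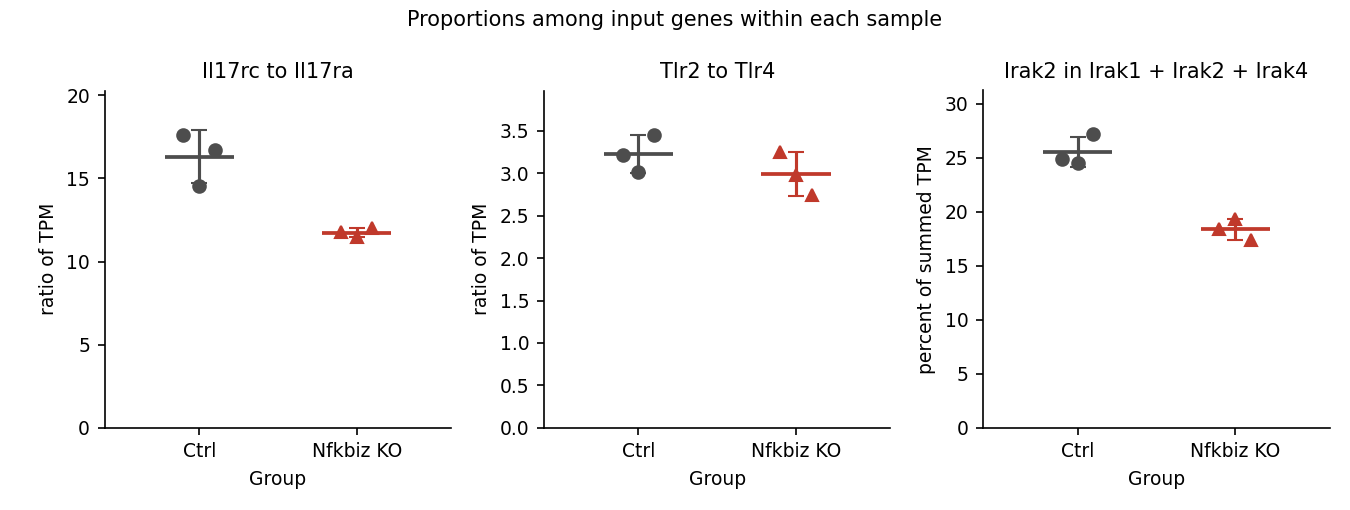
Proportions of input genes within each sample from TPM, for Ctrl (circles) and Nfkbiz KO (triangles), with mean (line) and SD (error bar), all axes from 0. The Il17rc to Il17ra ratio (16.3 against 11.7) and the Irak2 share (25.5% against 18.4%) do not overlap between groups, whereas the Tlr2 to Tlr4 ratio does (3.23 against 2.99).

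Of 60 further genes of the same pathways, grouped as ligands, receptors, accessory proteins, adaptors, signal relays and inhibitors, 59 were listed in the files and 6 had 0 reads in all samples. 37 were tested, of which 10 were higher, 4 lower and 23 did not pass, with a median log2 fold change of 0.053. The 14 called are close to the share among all genes tested (36.6%). 5 of the 37 passed a fold change of 1.5, beside 11.6% of all genes: Tlr3, Unc93b1, Il1rl1, Sigirr and Ikbke.

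The ligands for the IL-17 receptor were absent or nearly so. Il17a and Il25 had 0 reads in all samples, which allows up to 3 reads in each, and Il17f had 0 to 3 reads. Il17d was the most abundant of the 6 ligand genes, with 0.85 ± 0.51 TPM in Ctrl samples and 1.28 ± 0.38 TPM in Nfkbiz KO (adjusted p = 0.68, edgeR). Of the other IL-17 receptor genes, Il17rd was the most abundant and stayed below Il17ra, with 0.74 ± 0.30 TPM in Ctrl samples and 0.96 ± 0.04 TPM in Nfkbiz KO (adjusted p = 0.47, edgeR).

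Among the other TLR genes, Tlr3, the receptor for double-stranded RNA, which signals through TICAM1 and not through MYD88, had 39.4, 37.8 and 32.1 TPM in Ctrl samples and 92.2, 84.8 and 95.8 TPM in Nfkbiz KO. It rose without overlap of the groups, by 1.22 on the log2 scale (SE 0.07, adjusted p = 6.7e-08, edgeR). Tlr3 is among the genes that the study itself picked on these samples, so its direction is not independent evidence. Tlr2 made up 39.0 ± 1.42% of the summed TPM of the 12 TLR genes in Ctrl and 28.9 ± 1.03% in Nfkbiz KO, although its own level was higher there. Tlr1 had 0 to 3 reads and Tlr6, like Tlr1 a partner of TLR2, had 0.80 ± 0.17 and 0.82 ± 0.03 TPM (adjusted p = 0.97, edgeR), both far below Tlr2.

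Of the 10 genes for TLR co-receptors and chaperones, 7 were tested, of which 1 was higher and 1 lower, beside 18.2% and 18.4% of all genes. Unc93b1, which carries endosomal TLRs to their compartment, had 5.39, 6.42 and 5.42 TPM in Ctrl samples and 13.2, 12.8 and 11.2 TPM in Nfkbiz KO, a rise of 0.92 on the log2 scale (SE 0.096, adjusted p = 1.2e-05, edgeR). The partners of TLR4 were present in both groups, since Ly96, which encodes MD-2, had 11.0 ± 1.81 and 13.9 ± 1.18 TPM (adjusted p = 0.25, edgeR) and Cd14 had 14.6 ± 0.95 and 15.4 ± 0.79 TPM (adjusted p = 0.83, edgeR). Hsp90b1, the chaperone gp96 and the most abundant of the list, had 1425 ± 104 and 1510 ± 35.9 TPM (adjusted p = 0.89, edgeR). Neither of the 2 tested genes among the other TIR adaptors was called, and Tirap, the more abundant, had 18.1 ± 3.53 and 21.8 ± 1.02 TPM (adjusted p = 0.18, edgeR).

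Of the 13 relay genes downstream of the receptors, 3 were higher, 2 lower and 8 did not pass, close to the 36.6% of all genes that were called. Ikbke, an IκB kinase relative that phosphorylates ACT1 among other targets, had 9.44, 9.48 and 9.64 TPM in Ctrl samples and 6.38, 6.07 and 6.08 TPM in Nfkbiz KO. It fell by 0.77 on the log2 scale (SE 0.061, adjusted p = 9e-07, edgeR), without overlap. Ube2v1, a partner of the ubiquitin enzyme used by TRAF6 and the most abundant of the list, had 225 ± 3.04 and 223 ± 1.56 TPM (adjusted p = 0.13, edgeR). Only 7.81% of its reads over all samples mapped uniquely, so its level and its rank in the list are uncertain.

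Of the 12 inhibitor genes, 11 were tested, of which 5 were higher and 1 lower, beside 18.2% and 18.4% of all genes. Il1rl1, the IL-33 receptor ST2, which can sequester MYD88, had 30.2, 36.4 and 29.8 TPM in Ctrl samples and 96.8, 86.0 and 102 TPM in Nfkbiz KO, a rise of 1.47 on the log2 scale (SE 0.075, adjusted p = 2.3e-08, edgeR). Il1rl1 passed the thresholds of the study in the reported fit, so its direction is not independent evidence. Sigirr, a decoy-like member of the same receptor family, rose by 1.27 (SE 0.235, adjusted p = 0.0011, edgeR) from 25 to 28 reads per Ctrl sample to 56 to 78 reads per Nfkbiz KO sample, a low level of 0.71 and 1.90 TPM. Usp25, a deubiquitinase that acts on the IL-17 receptor complex, rose by 0.53 (SE 0.071, adjusted p = 8.6e-05, edgeR). Traf4, which competes with TRAF6 for ACT1 and was the most abundant of the list, fell by 0.34 (SE 0.067, adjusted p = 0.0018, edgeR). Il1rl1 also encodes a receptor that signals through MYD88, so the list mixes genes that act in more than one way.

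**Figure D4:**
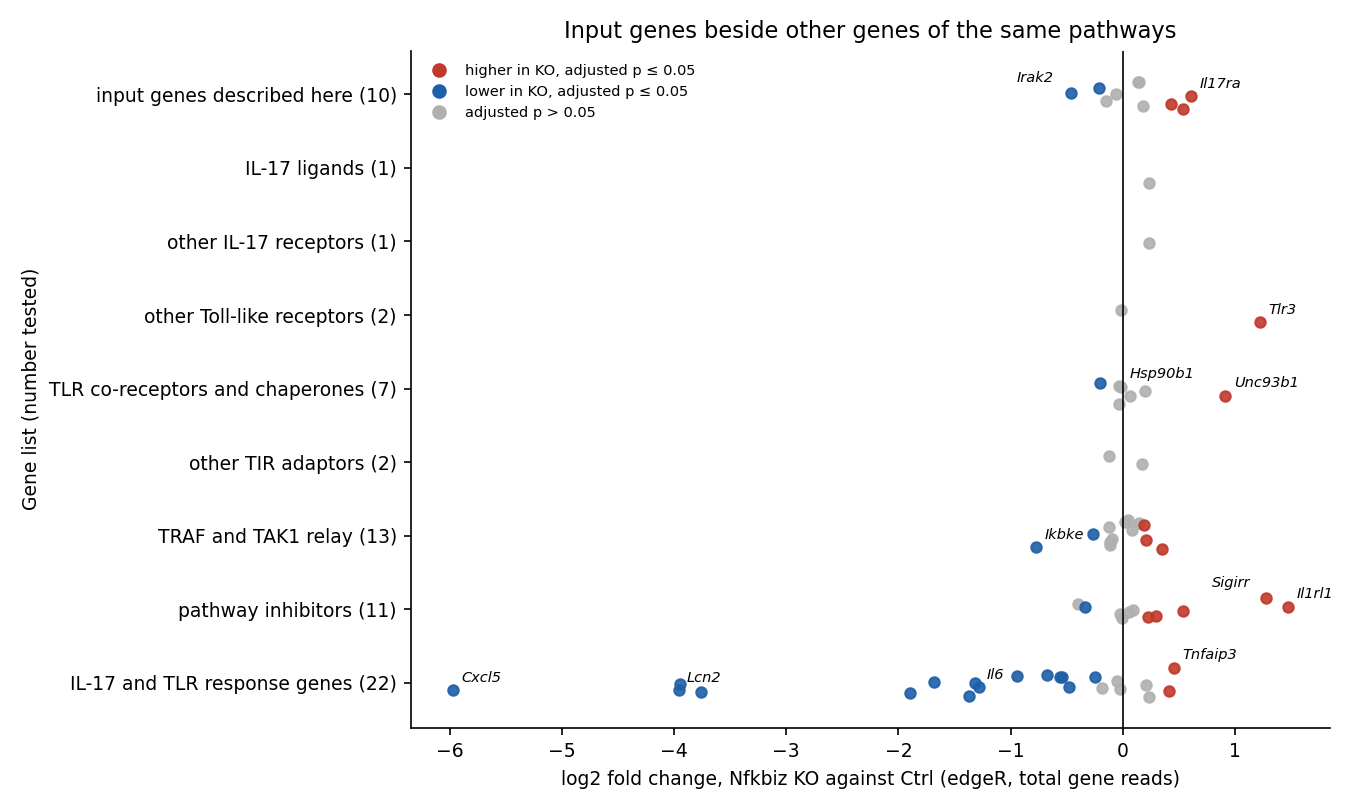
log2 fold change between Nfkbiz KO and Ctrl (edgeR on total gene reads, positive is higher in Nfkbiz KO) of the 10 input genes, of the tested genes in 7 lists of the same pathways and of 22 tested response genes, each point 1 gene, colored by direction where the adjusted p was 0.05 or less. The input genes lie between -0.46 and 0.61, whereas the response genes reach -5.97, a fitted value for Cxcl5 that rests on 0 to 2 reads per Nfkbiz KO sample.

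Log2 fold changes of the input genes spanned -0.46 to 0.61, and those of genes known to respond to IL-17 or TLR ligands -5.97 to 0.46. Of 24 response genes, 22 were tested, of which 15 were lower, 2 higher and 5 did not pass, with a median log2 fold change of -0.615, and 11 passed a fold change of 1.5. Over all genes tested, 36.6% were called, 18.4% lower, and 11.6% passed that fold change. Lcn2, which encodes the siderophore-binding lipocalin 2, had 197, 237 and 238 TPM in Ctrl samples and 15.7, 14.6 and 15.9 TPM in Nfkbiz KO. It fell by 3.96 on the log2 scale (SE 0.09, adjusted p = 3.6e-11, edgeR). Steap4, a metalloreductase gene, also fell (log2 fold change -3.94), as did the growth factor genes Csf3 (-3.76) and Csf2 (-1.90) and the transcription factor genes Cebpd (-1.68) and Cebpb (-1.37). Also past a fold change of 1.5 were the alarmin gene S100a8 (-1.32), the cytokine gene Il6 (-1.28), the matrix protease gene Mmp3 (-0.94) and the chemokine gene Cxcl1 (-0.67). The neutrophil chemokine gene Cxcl5 had 57, 71 and 79 reads in Ctrl and 1, 0 and 2 reads in Nfkbiz KO. Mmp13, Ccl7 and Zc3h12a fell by less (-0.56, -0.54 and -0.48), and Ccl2, the most abundant, fell by 0.24 (SE 0.064, adjusted p = 0.01, edgeR). The 2 that rose, Tnfaip3 by 0.46 and Nfkbie by 0.41, encode A20 and IκBε, inhibitors of NF-κB. Several of these genes are known targets of IκBζ or were picked by the study on these samples, so their direction is not independent evidence.

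Markers of other cell types were checked because TLR genes are well known from myeloid cells. Of 11 leukocyte markers, 3, among them Tyrobp, had 0 reads in all samples, 1 was tested, and their summed level was 1.94 to 2.80 TPM in Ctrl samples and 1.93 to 4.14 TPM in Nfkbiz KO. Ptprc, which encodes CD45, had 0 to 6 reads per sample, and Cd68, the most abundant, had 2.19 ± 0.36 and 3.16 ± 1.22 TPM (adjusted p = 0.37, edgeR). Cd68 had 33 to 74 reads per sample, and its level was close to that of Il17ra. The part of these markers in the levels of the input genes was not tested. The 8 melanocyte lineage markers summed to 1.311 to 1.798 TPM in Ctrl samples and 1.27 to 1.98 TPM in Nfkbiz KO, with Sox10 and Tyr at 0 reads and Mitf, the most abundant, at 0.95 TPM in both groups, so that the defining markers of the labelled lineage were absent or very low. Of 8 keratinocyte, fibroblast and endothelial markers, 6 were tested, of which 1 was higher, 2 lower and 3 did not pass. Over all genes tested, 36.6% were called. Col1a1, a collagen of fibroblasts, was the most abundant and fell by 0.58 on the log2 scale (367 to 263 TPM), Dcn fell by 0.79, and Cdh5 rose by 1.34 from 18 to 39 reads to 72 to 83 reads per sample. The 3 that did not pass were Krt10 (-0.40), Pdgfra (0.002) and Pecam1 (-0.16), with adjusted p of 0.12, 0.98 and 0.88 (edgeR). Pdgfra averaged 38.1 TPM over all samples, whereas Pecam1 had at most 19 reads in any sample. The summed level of this list was 393 to 449 TPM in Ctrl samples and 296 to 326 TPM in Nfkbiz KO, and its part in the differences of the input genes was not tested.

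Total gene reads per sample ranged from 32219900 to 44927203, with 96.5% to 96.9% uniquely mapped. Every input gene had at least 251 total gene reads in every sample, so none of these counts lies near the limit of detection. No pair of samples in a group was a duplicate. Counting noise alone would give a chi-square close to its degrees of freedom, and the ratio of both was 25.8 to 65.9 for pairs of Ctrl and 3.41 to 5.89 for pairs of Nfkbiz KO samples. The Ctrl samples thus varied more, whereas the edgeR fit estimated the spread of each gene over both groups together. The effect of this difference on SE values, intervals and adjusted p-values was not tested.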

How the data were processed

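RNA of 3 Ctrl and 3 Nfkbiz KO samples of D4M-3A cells was sequenced by the authors with paired ends. Mapping was done in CLC Genomics Workbench against the mouse genome (GRCm39 in the methods, GRCm38 in the submitters' processing notes), without regard to strand. Each sample has 1 deposited gene table, in which the authors give total and uniquely mapped gene reads as raw counts. The deposited TPM values, equal to the column named expression value, and the deposited RPKM values are normalized for length and depth, with a decimal comma that was converted here. In each sample, 2105 to 2271 genes had total gene reads but an RPKM of 0. Total gene reads thus include reads that RPKM and TPM leave out, and these measures do not rest on the same reads.

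Total gene reads were tested with edgeR 4.0.16 in R 4.3.3 (TMM, filterByExpr with its minimum counts of 10 per sample and 15 in total, quasi-likelihood test, Benjamini-Hochberg adjustment over 14419 genes). SE values are the absolute log2 fold change over the square root of F, and 95% intervals use the degrees of freedom of that test. The counts of genes without overlap were read from normalized CPM. Where TPM or ratios are given, overlap was read from those values. Ratios used TPM and an exact permutation test. The same results were recomputed with DESeq2 1.42.0, with RLE factors or the likelihood-ratio test in edgeR, no filter or over 1 CPM in 3 samples, limma 3.58.1 on log2(TPM + 1) or log2(TPM + 0.1), uniquely mapped reads, a replicate block and each sample left out.

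Positions come from GENCODE vM39 on GRCm39, matched by symbol. The members and lists were chosen with earlier results of these data known. Named are all 10 members, Nfkbiz, every listed gene that was called and passed a fold change of 1.5, and the most abundant gene of each list. Others (such as Ly96, Usp25 and the genes overlapping members) and the motifs were chosen after their values or sequences were seen.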

Additional observations from a re-analysis of the deposited data

How the results depend on the processing

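The number of members called stayed between 4 and 7 under all alternatives (5 in the reported fit). The number called higher (3) was 5 with RLE factors, 6 with limma on log2(TPM + 1) and 5 with limma on log2(TPM + 0.1). The number called lower (2) was 1 with either limma fit and 1 to 2 with 1 sample left out. With the looser limits of 1.5-fold and 0.1 for the adjusted p, 1 member passed in place of 0 under the thresholds of the study. Of the 60 other pathway genes, 14 were called, and 9 to 16 with 1 sample left out, the lowest without Nfkbiz KO replicate 2. Response genes called stayed at 15 to 18, and all genes called (5274) at 3798 to 5638.

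Single calls changed as follows, and the cause was not tested. Traf3ip2 was lost with limma on log2(TPM + 1) (-0.127) and log2(TPM + 0.1) (-0.133), and ranged from -0.242 to -0.168 with 1 sample left out. Myd88 passed with RLE factors (0.188), without a filter (0.189) and with limma (0.269 and 0.274), and ranged from 0.121 to 0.218 with 1 sample left out, passing only without Ctrl replicate 3. Irak1 passed with DESeq2 and with RLE factors (0.152 each) and with limma (0.247 and 0.251), and Il17rc with limma on log2(TPM + 1) (0.229).

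With the replicate number as a block, 5 members and 5087 genes were called, and no call of a member changed. Same-numbered samples did not deviate together (correlations 0.025, -0.068 and 0.018), so the replicate block pairs samples that share only a number.

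With 3 samples per group, the permutation tests cannot go below p = 0.1. A p that misses the threshold does not show that a gene did not differ.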
